A study of Rattus norvegicus with 24 samples.

Results

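The genes described here are 7 genes of leukocyte recruitment and myeloid cells, with RNA levels from rat left ventricles after spinal cord injury (SCI). They are the chemokine gene Ccl2 (ENSRNOG00000007159), the endothelial adhesion genes Icam1 (ENSRNOG00000020679) and Vcam1 (ENSRNOG00000014333), the calprotectin subunit genes S100a8 (ENSRNOG00000011557) and S100a9 (ENSRNOG00000011483), the macrophage gene Cd68 (ENSRNOG00000037563) and Nfkbia (ENSRNOG00000007390), an inhibitor gene of the NF-kB pathway. They were picked by Ensembl ID for their role, with earlier results of these data known, and are 7 of the 23098 gene IDs in the deposited count table. The table holds no gene symbols, and the names are those that came with the IDs when the genes were chosen. All 7 passed the filter on low counts and are among the 15065 genes tested.

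RNA came from the free wall of the left ventricle, at mid-ventricular level, of male Wistar rats, with 6 libraries in each of 4 groups. In the SCI groups the cord was cut completely at a high thoracic level, and the hearts were collected 1 day, 3 days or 12 weeks after surgery. Sham rats had the dura opened at a high thoracic level, with no cord injury, and were collected 7 days after surgery. Every group therefore had spinal surgery, and no SCI group has a sham group of its own collection time, so that time since surgery and injury cannot be told apart. Whether every library stands for its own rat is not spelled out in the labels. If some share a rat, p-values cover only the spread among libraries, which may be technical.

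Recruitment of leukocytes from blood begins when cells of a tissue release chemokines and when endothelial cells display adhesion molecules. CCL2 attracts monocytes that carry its receptor CCR2. ICAM-1 and VCAM-1 bind integrins on leukocytes and hold them at the vessel wall. S100A8 and S100A9 pair to form calprotectin, an abundant cytosolic protein of neutrophils and monocytes, and CD68 is a lysosomal membrane protein of macrophages. IkB-alpha, the product of Nfkbia, holds the transcription factor NF-kB in the cytoplasm. NF-kB induces Nfkbia, which closes a negative feedback loop, and it is a known activator of Ccl2, Icam1 and Vcam1.

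The stretches below are shown because Icam1, Vcam1 and Nfkbia are textbook NF-kB target genes and all 3 were higher than sham at 12 weeks. They come from RefSeq's promoter windows (rat build GRCr8, while the counts were made on mRatBN7.2), in which 5 of the 7 genes matched by symbol, and lie within the 250 bases before the gene start. Capitals mark a match to the NF-kB consensus decamer, or to the looser pattern GGNNNTTCC, searched on both strands. The 2 motifs overlap, so that a decamer match can also count as a match to the pattern.
Vcam1, 93 bases before the start, chr2:206742857-206742886, minus strand: tccccttgaaGGGATTTCCCtccgcctctc
Nfkbia, 31 bases before the start, chr6:78597084-78597113, minus strand: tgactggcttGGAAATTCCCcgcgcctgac
Nfkbia, 180 bases before the start, chr6:78597233-78597262, minus strand: ctggtcgggaGGACTTTCCagccactcagg
Icam1, 218 bases before the start, chr8:27829617-27829646, plus strand: acttcagtttGGAAATTCCtgggtcgcagg
The consensus decamer was found in the Vcam1 and Nfkbia windows, and in 6.33% of the 33469 promoter windows of the same length. GGNNNTTCC was found in the Icam1, Vcam1 and Nfkbia windows and in 15.4% of all windows. The Cd68 and S100a9 windows held neither. S100a9 was also higher than sham at 12 weeks, and Cd68 was lower. Icam1, Vcam1 and Nfkbia were picked as known targets, so setting their windows beside all windows is not a test. A match of letters is a description of the sequence and not a binding site. Whether NF-kB had a part in the levels was not tested.

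The whole 250 bases before the Vcam1 start (chr2:206742784-206743033, minus strand, GRCr8) are printed because this gene holds a consensus match and had the larger rise of the pair of adhesion genes at 12 weeks. The capitals have the same meaning.
Vcam1: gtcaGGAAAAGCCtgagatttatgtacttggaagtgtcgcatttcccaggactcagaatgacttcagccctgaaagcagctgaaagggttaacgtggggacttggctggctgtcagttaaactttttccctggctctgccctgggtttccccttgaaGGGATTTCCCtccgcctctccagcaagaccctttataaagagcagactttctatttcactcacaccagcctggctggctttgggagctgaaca

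The libraries held 15002476 to 70340174 counts. Levels are given as CPM, the usual scaling of counts to library size, here with TMM factors. CPM is not corrected for gene length, so levels are compared between libraries and not from member to member. The shares of tested genes with a lower mean level, given further below, are likewise not corrected for gene length. A gene is called when the p-value of edgeR's quasi-likelihood test, two-sided and adjusted by the Benjamini-Hochberg method over all 15065 tested genes, is under 0.05. The median correlation of a library with the others of its group was 0.967 for replicate 3 of the 12 week group, 0.971 for replicate 5 of the 3 day group and 0.977 for replicate 1 of the 12 week group. It was 0.980 to 0.988 in the other 21 libraries. Library numbers in the labels fall into a range of 57 to 68, which holds the 3 day and sham libraries, and a range of 77 to 88, which holds those of 1 day and 12 weeks. The labels do not say what the numbers stand for. The 1 day and 12 week differences from sham have no value within 1 range of numbers, where group and range cannot be told apart. In every library 58.1 to 61.1% of the gene counts between 1 and 200 were even, and the counting error of the low genes may therefore exceed the Poisson error. Among counts above 0, 23 of 24 were even for S100a9, 19 of 23 for Ccl2 and 17 of 24 for S100a8.

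At 1 day after SCI, 2 of the 7 genes were called, Ccl2 and S100a8, and both rose. Of all tested genes 24% were called at 1 day, 11.9% higher and 12.1% lower. The members' median log2 fold change was 0.80 at 1 day, against 0.00050 over all tested genes. At 3 days, S100a8 and S100a9 were called and both rose, where 17.5% of all tested genes were called, 8.89% higher and 8.59% lower. The median was 0.94 for the members and 0.0076 over all genes. At 12 weeks all 7 were called, with 6 higher than sham and Cd68 lower, where 22.1% of all tested genes were called, 11.3% higher and 10.9% lower. The 12 week median was 1.30 for the members and 0.0074 over all genes. The 3 comparisons share the 6 sham libraries.

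The count of 7 at 12 weeks rested in part on single libraries. It was 5 to 7 when any 1 of the 12 libraries compared was left out, 6 without the 3 libraries of lowest correlation, 5 with limma-voom, 7 with DESeq2 and 4 with only the 2 groups compared, where Ccl2 and S100a8 failed the filter of that fit and Cd68 was not called. The count of 2 at 1 day was 5 without those 3 libraries, when Icam1 (log2 fold change 0.57, edgeR adjusted p = 0.0274), Vcam1 (0.80, adjusted p = 0.0138) and S100a9 (1.53, adjusted p = 0.0339) were called too. None of those 3 libraries belongs to the 1 day or sham group, and these 3 fold changes were the same to 2 decimals as with all libraries. The fit shares 1 estimate of each gene's spread over the 4 groups, so that libraries of other groups enter the p-values of every comparison. The groups differed in spread, with a Vcam1 SD of 1.09 CPM at 1 day, 0.755 in sham, 2.50 at 3 days and 5.72 at 12 weeks. The 1 day count was also 5 with only the 2 groups compared. Ccl2 and S100a8 had no sham library at or above 0.254 CPM, the limit of the filter, and passed it through their SCI libraries. A difference from sham in this direction was therefore built into their presence among the tested genes, and the member medians are a description only.

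**Figure D1:**
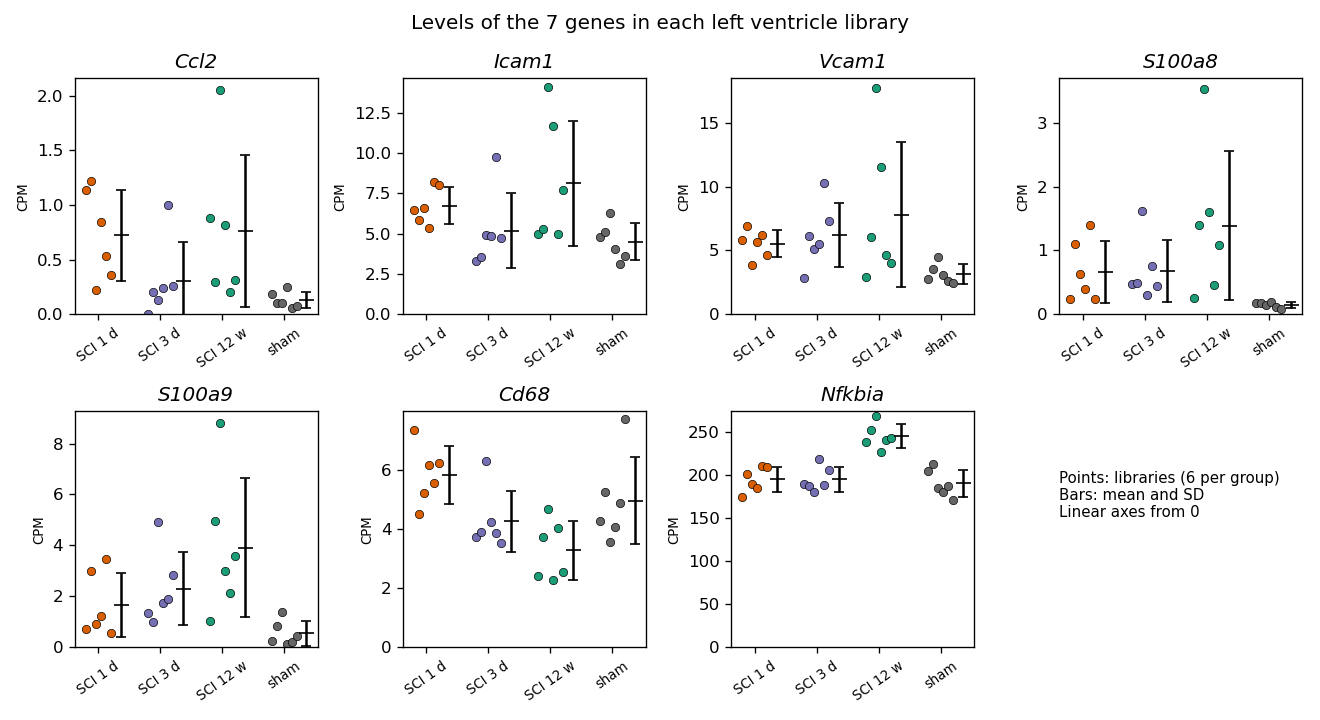
Level of each gene (CPM, linear axes from 0) in every left ventricle library, 6 per group, with the mean and SD beside the points (bars that reach below 0 are cut off there). The Nfkbia points at 12 weeks lie at 227 to 269 CPM, above all 6 sham libraries at 171 to 213 CPM. These 2 groups do not overlap in 9.6% of all tested genes. The SD at 12 weeks is 5.82% of the mean for Nfkbia and 30.7% (Cd68) to 91.6% (Ccl2) for the other genes.

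Ccl2 encodes the monocyte chemokine and was a low-count gene in this tissue, with 2 to 13 counts in the sham libraries. It ranged over 0.22, 0.69 and 1.22 CPM at 1 day (lowest, median and highest library), 0, 0.22 and 1.00 CPM at 3 days, and 0.20, 0.56 and 2.05 CPM at 12 weeks, against 0.05, 0.10 and 0.25 CPM in sham. At 1 day and at 12 weeks 5 of 6 libraries lay above every sham library, and at 3 days 2 of 6 did. The single library with no Ccl2 count, replicate 1 at 3 days, has an upper limit of 0.0785 CPM at its depth (3 counts, counting error only). That limit takes counts as independent and may be too low, since 19 of 23 Ccl2 counts above 0 were even. The mean was 0.720 ± 0.413 CPM at 1 day, against 0.128 ± 0.0727 CPM in sham (SD, n = 6 each), a 5.37-fold rise (log2 fold change 2.43, SE 0.65, edgeR adjusted p = 0.0078).

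At 12 weeks the Ccl2 mean was 0.760 ± 0.696 CPM, against 0.128 ± 0.0727 CPM in sham, with a log2 fold change of 2.49 (SE 0.66, edgeR adjusted p = 0.00851). Replicate 3 at 12 weeks had the highest level, and without it the log2 fold change was 1.84 (edgeR adjusted p = 0.0414). The call was lost with limma-voom (log2 fold change 2.00, adjusted p = 0.0573) and without the 3 libraries of lowest correlation (1.60, edgeR adjusted p = 0.0541). At 3 days Ccl2 averaged 0.305 ± 0.353 CPM, against 0.128 ± 0.0727 CPM in sham, and was not called (log2 fold change 0.98, SE 0.73, edgeR adjusted p = 0.389). Replicate 5 held the highest 3 day level, and the value without it was 0.34 (edgeR adjusted p = 0.798). The wide spread leaves the 3 day difference between -0.54 and 2.50 on the log2 scale (95% interval).

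Icam1 and Vcam1 encode the endothelial ligands of leukocyte integrins. Icam1 ranged over 5.34, 6.51 and 8.17 CPM at 1 day, 3.32, 4.76 and 9.75 CPM at 3 days and 4.95, 6.50 and 14.06 CPM at 12 weeks, against 3.10, 4.43 and 6.28 CPM in sham. All groups overlapped sham, with 4 of 6 libraries above every sham library at 1 day, 1 at 3 days and 3 at 12 weeks. Icam1 rose at 12 weeks to 8.11 ± 3.90 CPM, against 4.49 ± 1.15 CPM in sham (SD, n = 6 each), 1.80-fold (log2 fold change 0.85, SE 0.26, edgeR adjusted p = 0.0213). That call was lost without replicate 3 at 12 weeks (0.62, edgeR adjusted p = 0.073), without replicate 4 at 12 weeks (0.72, adjusted p = 0.0619) and without sham replicate 5 (0.77, adjusted p = 0.051). At 1 day the log2 fold change was 0.57 (SE 0.26, edgeR adjusted p = 0.108), with 6 of 6 libraries above the sham mean but no call. With only the 2 groups compared the 1 day difference was called (0.58, edgeR adjusted p = 0.0124).

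At 3 days Icam1 had a log2 fold change of 0.16 (SE 0.27, edgeR adjusted p = 0.729). Replicate 5 at 3 days, at 9.75 CPM, stood above the other 5 libraries, which lay at 3.32 to 4.93 CPM. The difference was -0.09 without that library, and its direction against sham was not fixed by these data.

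Vcam1 ranged over 3.88, 5.76 and 6.90 CPM at 1 day, 2.80, 5.82 and 10.31 CPM at 3 days and 2.91, 5.38 and 17.72 CPM at 12 weeks, against 2.41, 2.92 and 4.46 CPM in sham. At 1 day and at 3 days 5 of 6 libraries were above every sham library, and at 12 weeks 4 were. The 12 week mean of 7.82 ± 5.72 CPM, against 3.15 ± 0.755 CPM in sham, was a called rise of 2.47-fold (log2 fold change 1.30, SE 0.33, edgeR adjusted p = 0.00646). Replicates 3 and 4 at 12 weeks had 17.72 and 11.52 CPM and the other 4 libraries 2.91 to 6.09 CPM. The call held in all 20 alternatives tried, with log2 fold changes of 0.89 to 1.46 and adjusted p of 0.00212 to 0.0297.

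In the fit of all libraries the earlier Vcam1 differences were not called. At 1 day the log2 fold change was 0.80 (SE 0.33, edgeR adjusted p = 0.0793), and at 3 days 0.94 (SE 0.34, adjusted p = 0.0531). With only the 2 groups compared both were called, at 0.80 (edgeR adjusted p = 0.00185) for 1 day and 0.95 (adjusted p = 0.0137) for 3 days. Leaving out sham replicate 3 brought the 3 day value past the threshold (1.07, edgeR adjusted p = 0.0429), as did leaving out 3 day replicate 1, the library with the lowest 3 day level (1.10, adjusted p = 0.0259). It was also called without the 3 libraries of lowest correlation (0.75, edgeR adjusted p = 0.0368) and with DESeq2 (0.97, adjusted p = 0.0392). Sham and 3 day libraries share 1 range of library numbers, so that this comparison lies within a range.

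S100a8 and S100a9 encode the calprotectin subunits and are listed next to each other on the same chromosome in the RefSeq gene table, with 0 genes between them. S100a8 ranged over 0.24, 0.51 and 1.40 CPM at 1 day, 0.30, 0.48 and 1.62 CPM at 3 days and 0.25, 1.23 and 3.52 CPM at 12 weeks, against 0.08, 0.15 and 0.19 CPM in sham. Every SCI library lay above every sham library at 1 day, 3 days and 12 weeks. Groups that do not overlap were seen in 14.8% of all tested genes at 1 day, 8.93% at 3 days and 9.6% at 12 weeks. S100a8 passed the filter on low counts through its SCI libraries, with no sham library at the limit. A position above sham was therefore partly built in, and these shares are no yardstick for it. Sham values of S100a8 rest on 2 to 12 counts per library.

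The S100a8 rise was 4.50-fold at 1 day (log2 fold change 2.17, SE 0.58, edgeR adjusted p = 0.00792), with means of 0.665 ± 0.485 CPM at 1 day and 0.142 ± 0.0433 CPM in sham (SD, n = 6 each). It was also 4.50-fold at 3 days (log2 fold change 2.17, SE 0.60, adjusted p = 0.0131), with a mean of 0.680 ± 0.484 CPM. At 12 weeks it was 9.40-fold (log2 fold change 3.23, SE 0.58, adjusted p = 0.000306), with a mean of 1.38 ± 1.17 CPM. Leaving out any 1 library kept the 1 day, 3 day and 12 week calls in edgeR. The 3 day call was lost with limma-voom (1.90, adjusted p = 0.061).

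S100a9 ranged over 0.54, 1.07 and 3.46 CPM at 1 day, 0.99, 1.81 and 4.93 CPM at 3 days and 1.01, 3.29 and 8.83 CPM at 12 weeks, against 0.12, 0.35 and 1.38 CPM in sham. Sham replicate 3, at 1.38 CPM, lay above the lowest SCI libraries of each time, so that S100a9 overlapped sham at 1 day, 3 days and 12 weeks. S100a9 rose to 3.91 ± 2.75 CPM at 12 weeks, against 0.539 ± 0.478 CPM in sham, 6.96-fold (log2 fold change 2.80, SE 0.57, edgeR adjusted p = 0.00111). It rose to 2.29 ± 1.44 CPM at 3 days, against the same sham mean, 4.02-fold (log2 fold change 2.01, SE 0.58, edgeR adjusted p = 0.0174). Without 3 day replicate 3, the highest library of its group, the 3 day log2 fold change was 1.63 (edgeR adjusted p = 0.0538).

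At 1 day S100a9 averaged 1.64 ± 1.26 CPM, with a log2 fold change of 1.53 (SE 0.57) that missed the threshold (edgeR adjusted p = 0.0515). It passed when sham replicate 3 was left out (2.09, adjusted p = 0.0156) and without 1 day replicate 1 (1.68, adjusted p = 0.0403), replicate 3 (1.66, adjusted p = 0.0468) or replicate 6 (1.72, adjusted p = 0.0343), all in edgeR. DESeq2 (1.59, adjusted p = 0.0331), upper quartile factors (1.55, edgeR adjusted p = 0.0472) and the fit of only the 2 groups (1.54, adjusted p = 0.0472) called it too, and 9 of 20 alternatives did in all. All 6 libraries at each SCI time lay above the sham mean.

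Cd68, the lysosomal macrophage gene, was the member that fell. It ranged over 4.50, 5.87 and 7.35 CPM at 1 day, 3.52, 3.88 and 6.29 CPM at 3 days and 2.29, 3.13 and 4.69 CPM at 12 weeks, against 3.55, 4.58 and 7.72 CPM in sham. All 6 libraries at 12 weeks were below the sham mean and 3 were below every sham library. In bulk tissue a lower level can come from fewer cells that express the gene or from less RNA per cell, and these cannot be told apart. The 12 week mean of 3.28 ± 1.01 CPM, against 4.96 ± 1.48 CPM in sham, was lower by 0.58 on the log2 scale (log2 fold change -0.58, SE 0.20, edgeR adjusted p = 0.0358). That call was lost without sham replicate 2 (-0.56, adjusted p = 0.0626), 5 (-0.58, adjusted p = 0.053) or 6 (-0.42, adjusted p = 0.116). It was also lost without 12 week replicate 1 (-0.51, adjusted p = 0.074), 4 (-0.49, adjusted p = 0.0892) or 6 (-0.51, adjusted p = 0.0835). The limma-voom value was -0.54 (adjusted p = 0.0504), and edgeR with only the 2 groups compared gave -0.58 (adjusted p = 0.0737). In all, 9 of 20 alternatives ended the call. At 1 day and 3 days the log2 fold changes were 0.25 (SE 0.19, edgeR adjusted p = 0.368) and -0.21 (SE 0.19, adjusted p = 0.503).

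Nfkbia encodes the NF-kB inhibitor IkB-alpha and differed from the other members in its small spread. It ranged over 174, 195 and 210 CPM at 1 day, 179, 189 and 219 CPM at 3 days and 227, 242 and 269 CPM at 12 weeks, against 171, 186 and 213 CPM in sham. The 12 week libraries lay above every other library of the series. Groups did not overlap in 9.6% of all tested genes for 12 weeks against sham, 13.4% against 1 day and 10.1% against 3 days. The mean was 245 ± 14.3 CPM at 12 weeks, against 190 ± 15.5 CPM in sham (SD, n = 6 each), a rise of 1.29-fold (log2 fold change 0.36, SE 0.063, edgeR adjusted p = 0.000218). The rise held in all 20 alternatives tried, with log2 fold changes of 0.34 to 0.40. Of all tested genes, 25.5% had a larger absolute log2 fold change at 12 weeks against sham.

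At the acute times Nfkbia was not called, with log2 fold changes of 0.036 at 1 day (SE 0.063, edgeR adjusted p = 0.721) and 0.033 at 3 days (SE 0.063, adjusted p = 0.769). The 95% intervals were -0.095 to 0.17 at 1 day and -0.098 to 0.16 at 3 days. An acute difference larger than these bounds lies outside the intervals. The biological coefficient of variation of Nfkbia was 0.0835, against a common value of 0.169 over all tested genes. Those of Ccl2, S100a8 and S100a9 were 0.689, 0.592 and 0.638, higher than in 99.2, 98.5 and 98.9% of the tested genes in that order, and those of Icam1, Vcam1 and Cd68 were 0.309, 0.389 and 0.226. In mean log2 CPM, Ccl2, S100a8 and S100a9 lay above 5.79, 9.68 and 19.7% of the tested genes, and Nfkbia above 96.8%. The part that level has in these spreads was not tested.

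**Figure D2:**
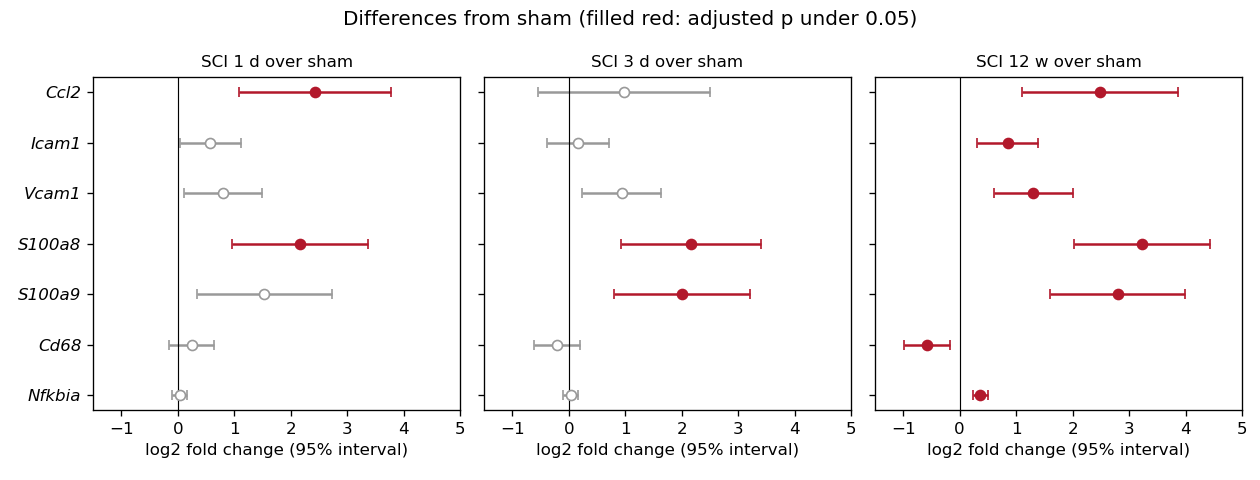
Log2 fold change of each gene over sham (points) with 95% intervals from the edgeR standard errors, for 1 day, 3 days and 12 weeks after SCI. Filled red points have an adjusted p under 0.05 over all tested genes, which holds for 2 genes at 1 day, 2 at 3 days and all 7 at 12 weeks, Cd68 alone being below 0 among the called genes.

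The SCI groups were also compared directly. Between 12 weeks and 1 day, groups that share the range of library numbers 77 to 88, 2 members were called, 1 higher and 1 lower, where 33.9% of all tested genes were, 17.8% higher and 16.1% lower. Nfkbia was higher at 12 weeks, at 245 ± 14.3 CPM, against 195 ± 14.4 CPM at 1 day (log2 fold change 0.33, SE 0.063, edgeR adjusted p = 0.000304), and the groups did not overlap, as for 13.4% of all tested genes. Cd68 was lower at 12 weeks, at 3.28 ± 1.01 CPM, against 5.84 ± 0.980 CPM at 1 day (log2 fold change -0.83, SE 0.20, adjusted p = 0.00215), with 5 of 6 libraries below every 1 day library. The Cd68 call between these times held in all 20 alternatives, with log2 fold changes of -0.95 to -0.75.

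S100a8 and S100a9 were not called between 12 weeks and 1 day. Their log2 fold changes were 1.06 (SE 0.49, edgeR adjusted p = 0.0974) and 1.27 (SE 0.52, adjusted p = 0.0648). Both were called without 1 day replicate 5 (S100a8 1.44, adjusted p = 0.0355, and S100a9 1.65, adjusted p = 0.0263) and without 12 week replicate 1 (1.25, adjusted p = 0.0456, and 1.44, adjusted p = 0.0353), and S100a9 also without 1 day replicate 2 (1.51, adjusted p = 0.0406). The limma-voom test called S100a9 as well (1.40, adjusted p = 0.0241). Without 12 week replicate 3 the values were 0.55 for S100a8 (edgeR adjusted p = 0.397) and 0.86 for S100a9 (adjusted p = 0.218). These values give no fixed order of the calprotectin genes between 1 day and 12 weeks. Ccl2 (0.061, 95% interval -1.11 to 1.24), Icam1 (0.27, interval -0.26 to 0.81) and Vcam1 (0.50, interval -0.17 to 1.18) were not called either, and the intervals leave room for differences in both directions.

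Between 12 weeks and 3 days, 2 members were called higher, where 31.3% of all tested genes were called, 16% higher and 15.3% lower. Nfkbia was at 245 ± 14.3 CPM at 12 weeks, against 195 ± 14.5 CPM at 3 days (log2 fold change 0.33, SE 0.063, edgeR adjusted p = 0.00032), with no overlap, as for 10.1% of all tested genes. Icam1 had a log2 fold change of 0.69 (SE 0.26) at the edge of the threshold (edgeR adjusted p = 0.049988). That Icam1 call was lost in 13 of 20 alternatives, which included leaving out 3 day replicate 1, 2, 3, 4 or 6 or 12 week replicate 3, 4 or 6, with log2 fold changes of 0.46 to 0.94 over all alternatives. Ccl2, at 1.51 (SE 0.64, adjusted p = 0.0765), was called without 3 day replicate 5 (2.15, adjusted p = 0.0135) or 12 week replicate 5 (1.72, adjusted p = 0.0464), and S100a8, at 1.06 (SE 0.51, adjusted p = 0.114), without 3 day replicate 3 (1.55, adjusted p = 0.0267). Without 12 week replicate 3 the values were 0.86 for Ccl2 (edgeR adjusted p = 0.325) and 0.55 for S100a8 (adjusted p = 0.424). These 2 groups differ in their range of library numbers.

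Between 3 days and 1 day no member was called by edgeR, where 2.74% of all tested genes were, 1.23% higher and 1.51% lower. Of the 7 members, Cd68 and Ccl2 had the lowest unadjusted p, at ranks 1929 and 2077 among the 15065 tested genes. Ccl2 had a log2 fold change of -1.45 (SE 0.63, unadjusted p = 0.0302, edgeR adjusted p = 0.219), and Cd68 had -0.46 (SE 0.19, unadjusted p = 0.0262, adjusted p = 0.205). DESeq2 and limma-voom called 0 members too. All 7 genes overlapped between these groups, where 2.04% of all tested genes did not. Without 3 day replicate 5 and the other 2 libraries of lowest correlation Ccl2 was called lower at 3 days than at 1 day (-2.09, edgeR adjusted p = 0.0255).

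Libraries of 1 group that were high in a gene were in part high in another. Deviations of log2 CPM from the group mean were correlated for all 21 pairs of the 7 genes over the 24 libraries. Pairs of other genes were not put through this test, so the share of all pairs that would pass is not known. Whether the relations are particular to these genes was not tested. S100a8 and S100a9 varied together, with Pearson's r of 0.706 (permutation p = 0.00025, adjusted p = 0.00525) and Spearman's rho of 0.626 (permutation p = 0.00218, adjusted p = 0.0267). Icam1 and Vcam1 had r of 0.767 (permutation p = 0.00073, adjusted p = 0.00766) and rho of 0.618 (permutation p = 0.00737, adjusted p = 0.0516), and Ccl2 and Vcam1 had r of 0.696 (permutation p = 0.00165, adjusted p = 0.0115) and rho of 0.657 (permutation p = 0.00254, adjusted p = 0.0267). Vcam1 and S100a9 had r of 0.532 (permutation p = 0.00799, adjusted p = 0.0419) and rho of 0.501 (permutation p = 0.019, adjusted p = 0.0902). No pair with Cd68 or Nfkbia passed, with adjusted p of 0.46 or more for Pearson's r. The r differed between groups of 6 libraries. For Icam1 and Vcam1 it was -0.21 at 1 day and 0.79 to 0.87 in the other groups. For S100a8 and S100a9 it was -0.11 in sham and 0.68 to 0.95 elsewhere. For Ccl2 and Vcam1 it was 0.15 in sham and 0.62 to 0.98 elsewhere. For Vcam1 and S100a9 it was 0.15 at 3 days and 0.67 to 0.78 elsewhere.

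The calls of these relations changed when libraries were left out. Without the 2 libraries farthest from the median of the first gene of each pair, r was 0.596 for S100a8 and S100a9, 0.607 for Icam1 and Vcam1, 0.576 for Ccl2 and Vcam1 and 0.337 for Vcam1 and S100a9, and no pair passed the adjusted threshold. Removing the extremes of a gene tends to lower r by itself, so these values cannot show whether the relations rest on those libraries. Leaving out only 12 week replicate 3 also ended the call of Ccl2 and Vcam1 (r = 0.616, permutation adjusted p = 0.0581), and the pair of Vcam1 and S100a9 was lost without any of 12 single libraries. Within the libraries numbered 77 to 88 the S100a8 and S100a9 r was 0.937 (permutation adjusted p = 0.0042), and within those numbered 57 to 68 it was 0.317 (adjusted p = 0.748). For Icam1 and Vcam1 r was 0.758 in the range 77 to 88 and 0.801 in the range 57 to 68. The adjusted p was 0.213 and 0.172, with fewer libraries in each range than in the whole. The low counts of S100a8 in sham limit the precision of its deviations there.

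**Figure D3:**
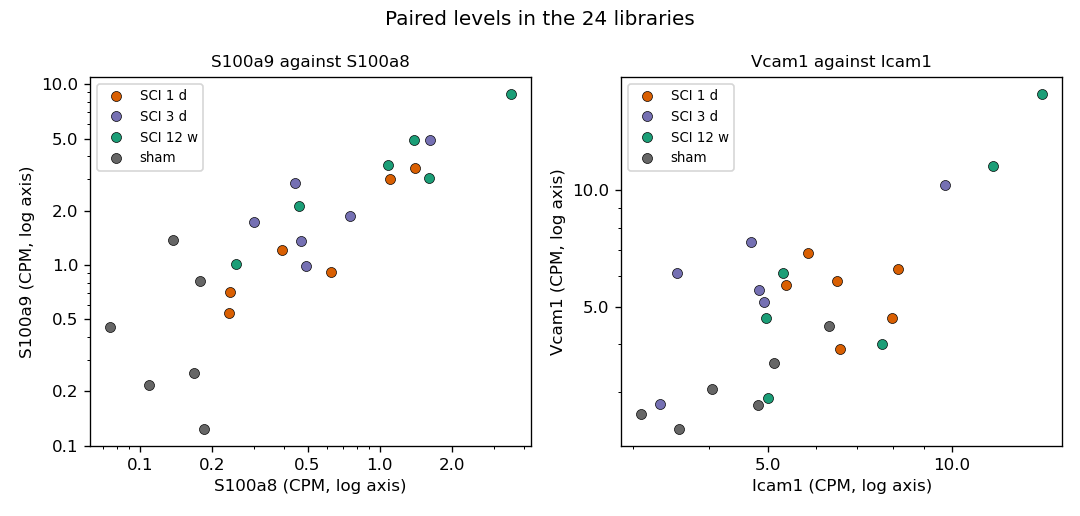
Levels of S100a9 against S100a8 and of Vcam1 against Icam1 in the 24 libraries (CPM, log axes), coloured by group. The 12 week library with the highest levels, replicate 3, has 3.52 CPM of S100a8 with 8.83 CPM of S100a9 and 14.06 CPM of Icam1 with 17.72 CPM of Vcam1.

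Replicate 3 at 12 weeks held the highest 12 week level of all 7 genes. It is also the library with the lowest correlation with its own group. The part that the make-up of this library has in the levels was not tested, since the markers of other cell types could not be looked up by symbol (0 of the 23098 IDs matched the RefSeq gene table). Over all 24 libraries and across groups, S100a8 and S100a9 were each other's nearest member (r = 0.861 between log2 CPM values, a description), and 4 other tested genes lay closer to S100a8 and 3 closer to S100a9. Icam1 and Vcam1 were the nearest members of each other (r = 0.758), with 17 and 27 other genes closer. Cd68 had no member with a positive r. The genes that lay closer carry IDs only and are not named.

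**Figure D4:**
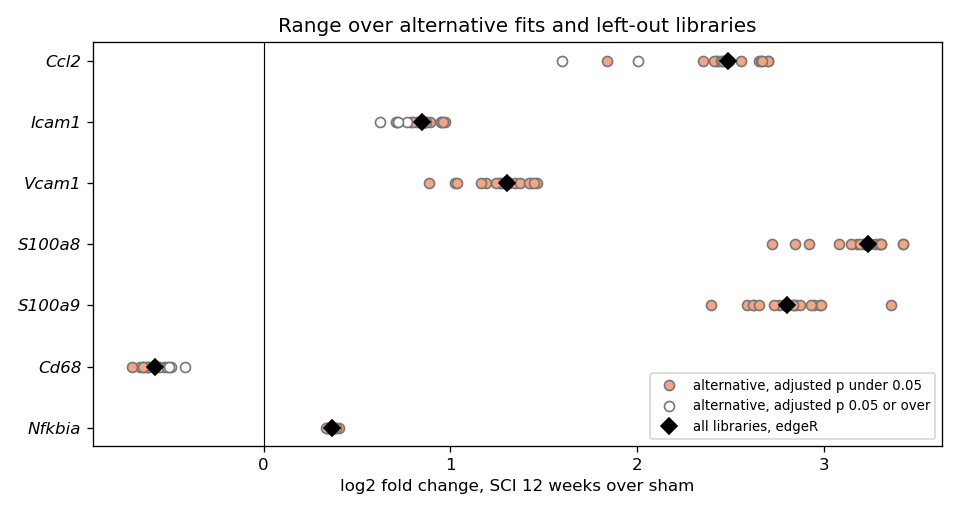
Log2 fold change of each gene at 12 weeks over sham in the fit of all libraries (black diamonds) and in the alternative fits and fits with 1 or 3 libraries left out (circles, filled where the adjusted p was under 0.05). Every circle lies on the same side of 0 as its diamond, and open circles occur for Ccl2, Icam1 and Cd68.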

How the data were processed

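The authors deposited 1 table of raw counts per Ensembl gene ID for all 24 libraries. Per the labels' protocols, ribosomal RNA was depleted and strand-specific libraries were sequenced as paired ends. The submitters' processing notes name build mRatBN7.2 and the tools featureCounts 2.0.6, STAR 2.7.11a and FastQC 0.12.1. Sources used here do not give the strand setting, the annotation release or the handling of multi-mapping reads, so overlapping or near-identical genes may share reads. The table has 26166 lines for 23098 IDs. The lines of the 781 repeated IDs are identical, and each ID was used once.

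The tests were run with edgeR 4.0.16 in R 4.3.3 (filterByExpr by group with its default minimum of 10 counts, TMM factors, 1 model with a term per group, 20 residual degrees of freedom, quasi-likelihood contrasts). Limma-voom (limma 3.58.1) used the same filter and TMM factors. DESeq2 1.42.0 used its own size factors and filter, so its adjusted p covers another set of genes. The other alternatives for fold changes were changes to the edgeR fit. The edgeR, limma-voom and DESeq2 comparisons with sham and the permutation within groups were tried on simulated data, and the other steps were not. Standard errors were derived from the fold change and F statistic, and 95% intervals use 20 degrees of freedom. Correlations used log2 CPM with a prior count of 2 and 100000 permutations within groups, two-sided.

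The members and all gene lists were chosen with earlier results of these data known. The rule for naming took all 7 members. The fixed lists of other chemokine, adhesion, NF-kB and cell type genes, and tissue markers, need symbols and were not counted, because 0 IDs matched.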

Additional observations from a re-analysis of the deposited data

Results flagged for a closer look

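Single libraries stood apart within their group in 5 of the 28 gene and group combinations (gap to the nearest library over the range of the group, above the 95% critical value for 6 libraries). That value is passed in about 1 in 20 cases only for independent, normally distributed values. Here it was applied to CPM without logs, and genes of the same library are not independent. The 5 of 28 can therefore not be read against that rate. Ccl2 was highest in 3 day replicate 5, at 1.00 CPM, and in 12 week replicate 3, at 2.05 CPM. Icam1 was highest in 3 day replicate 5, at 9.75 CPM. Cd68 and S100a8 were highest in 3 day replicate 3, at 6.29 and 1.62 CPM. Replicate 5 at 3 days and replicate 3 at 12 weeks are among the 3 libraries of lowest correlation with their group, and what part this has in their levels was not tested.

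SCI groups differed by direct test (edgeR, adjusted p under 0.05) in 4 cases, each of which is a difference between times of the change from the shared sham group. Cd68 was lower at 12 weeks than at 1 day (log2 fold change -0.83). Nfkbia was higher at 12 weeks than at 1 day (0.33) and than at 3 days (0.33). Icam1 was higher at 12 weeks than at 3 days (0.69).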

How the results depend on the processing

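Across the 6 comparisons, alternatives to the edgeR fit of all 24 libraries left 838 values of single genes and of correlations in the same direction and on the same side of the threshold, took 53 below it and 29 past it, and turned the sign of 32, all of which were uncalled. At 12 weeks against sham, Vcam1, S100a8, S100a9 and Nfkbia were called under every alternative that tested them. Low counts limit Ccl2 and S100a8, and S100a9 in sham (4 to 80 counts per library). The cause of the changes below was not tested unless stated.

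The count of members called moved by more than 1.5 times as follows. At 1 day against sham it was 5 with only the 2 groups compared and 5 without the 3 libraries of lowest correlation, and 2 to 3 with 1 library left out. At 3 days against sham it was 1 with limma-voom, and 1 to 3 with 1 library left out (1 without 3 day replicate 3). At 12 weeks against sham it was 4 with only the 2 groups compared, where Ccl2 and S100a8 failed the filter of that fit and Cd68 was not called, and 5 to 7 with 1 library left out. For 12 weeks against 1 day it was 2 to 4 with 1 library left out. For 12 weeks against 3 days it was 1 with RLE factors, upper quartile factors, no filter or only the 2 groups compared, and 1 to 3 with 1 library left out. For 3 days against 1 day it was 1 without the 3 libraries of lowest correlation and 0 with any 1 library left out. In that comparison the count over all genes was 413, against 812 with DESeq2, 259 with only the 2 groups compared, 1018 without the 3 libraries and 170 to 613 with 1 library left out. Of the 4 pairs of genes with a called correlation, 0 remained called without the 2 farthest libraries, 0 in the libraries numbered 57 to 68 and 1 in those numbered 77 to 88, and 2 to 6 pairs were called with 1 library left out.

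Signs turned for uncalled values near 0. For 3 days against 1 day, S100a8 (0.00078) was -0.0029 with RLE factors, -0.0061 with upper quartile factors, -0.0097 with no filter, -0.0037 with only the 2 groups and -0.028 without the 3 libraries, and -0.49 to 0.38 with 1 library left out. Without the 3 libraries Vcam1 was -0.043 and Nfkbia 0.0065 in that comparison, with ranges of -0.043 to 0.30 and -0.041 to 0.021 when 1 library was left out. For 3 days against sham, Icam1 was -0.034 with limma-voom, -0.093 without the 3 libraries and -0.090 to 0.28 with 1 library left out. For 12 weeks against 1 day, Ccl2 was -0.17 with limma-voom, -0.83 without the 3 libraries and -0.59 to 0.28 with 1 library left out. For 12 weeks against 3 days, Vcam1 was -0.054 to 0.55 with 1 library left out.

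The replicate numbers do not pair the samples, since 4 of 36 same-numbered pairs correlated over 0.1 and 2 of 24 libraries correlated best with their own number. With the replicate number as a block, the members called were 3 at 1 day, 2 at 3 days and 6 at 12 weeks against sham, 2 for 12 weeks against 1 day, 1 for 12 weeks against 3 days and 0 for 3 days against 1 day, and the Ccl2 value for 12 weeks against 1 day was -0.0081. The block brought S100a9 at 1 day past the threshold (1.74, edgeR adjusted p = 0.0161), and under it Cd68 at 12 weeks against sham (-0.59, adjusted p = 0.0533) and Icam1 for 12 weeks against 3 days (0.66, adjusted p = 0.0687) were not called.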
